A study of Mus musculus with 6 samples.

Results

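The mammary luminal layer holds progenitor cells that can give rise to milk-secreting alveolar cells, and 10 genes of that lineage were followed here across a diet experiment in mice. The progenitor and alveolar-fate members were Elf5, Kit, Aldh1a3, Cd14 and Ltf, and the milk-secretion members were Lalba, Csn2, Csn3, Wap and Btn1a1. They were chosen by name, and a probe counted as a member when its RefSeq accession belonged to one of them. All 10 genes were found, on 11 probes (2 for Wap and 1 for each of the others), among 39429 probes on the array. RNA was measured in 6 female mice carrying the Trp53-/- (Trp-53 knockout) genotype, all 8 weeks old, with 1 single-colour (Cy3) Agilent array per biological replicate, each taken here as 1 mouse. From 3 weeks of age 3 of them received HFD (high-fat diet) and 3 CD (control diet), an exposure of 5 weeks. Every mouse in both groups lacked Trp53 and no wild-type mice were measured, so the comparison of diets holds for Trp53-null mice alone. The labels give mammary glands as the tissue but speak of epithelial cells when describing the samples.

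In the adult gland the transcription factor ELF5 and the prolactin receptor acting through JAK2 and STAT5 direct luminal progenitors towards alveolar cells, and activated STAT5 binds the promoters of casein genes. Alveolar cells then make the caseins, whey proteins, lactose and the protein-coated fat droplets of milk. KIT, a receptor tyrosine kinase, and ALDH1A3, an enzyme that makes retinoic acid, mark luminal progenitors. In a gland that has never been pregnant, alveolar cells are few and full lactation is absent.

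Promoters of 6 of the 10 genes were found in RefSeq's table for GRCm38.p6 (Elf5, Kit, Ltf, Lalba, Csn2 and Wap), each running from 250 bases before to 50 after the gene's start. They were searched for the letters TTCNNNGAA, which STAT proteins bind and which read the same on both strands. Among the members Csn2 alone had a match, at -93 from its start, and 8.3% of all 32851 promoters of that length held at least one. Csn2 is shown with the match in capitals (chr5:87699376-87699675, minus strand), because it is the member with these letters, and its transcript lay at background here. Ltf follows (chr9:111019042-111019341, plus strand, no match), as a progenitor member that varied widely between mice.
Csn2: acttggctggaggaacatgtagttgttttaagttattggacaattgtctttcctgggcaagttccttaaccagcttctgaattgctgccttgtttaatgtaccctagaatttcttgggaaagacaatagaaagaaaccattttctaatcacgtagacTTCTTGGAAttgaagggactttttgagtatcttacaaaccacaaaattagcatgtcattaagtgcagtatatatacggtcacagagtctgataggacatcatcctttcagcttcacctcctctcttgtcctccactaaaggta
Ltf: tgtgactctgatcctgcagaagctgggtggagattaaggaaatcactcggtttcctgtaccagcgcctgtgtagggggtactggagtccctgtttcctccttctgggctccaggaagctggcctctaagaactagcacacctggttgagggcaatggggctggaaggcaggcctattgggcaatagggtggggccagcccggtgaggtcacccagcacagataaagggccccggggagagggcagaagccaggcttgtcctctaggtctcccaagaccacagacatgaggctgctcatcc

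Between 27202 and 29409 probes were well above background on each array, no spot was saturated, and precision is limited by how few arrays there were. Levels are log2 processed signals relative to the 75th percentile of the same array, differences are HFD minus CD, and n = 3 mice per diet throughout. All 14 general epithelial markers were well above background on all 6 arrays. Of 12 adipocyte markers 9 were, 0 of the 11 tested passed between diets, and their levels were uneven. Fabp4, a fatty acid carrier picked after its values were seen, ran from 0.39 to 2.55, whereas Adipoq, the adipocyte hormone adiponectin, was at -6.21, -5.74 and -5.88 under HFD and at -7.33, -6.65 and -6.98 under CD. The diets did not overlap in 4 of the 11, beside 17.2% of all genes. Adipoq (difference 1.04, SE 0.22, limma adjusted p = 0.222) and Cfd, the adipokine adipsin (1.78, SE 0.27, adjusted p = 0.132), were higher under HFD. Pparg (-1.09, SE 0.25, adjusted p = 0.231) and Lipe (-0.29, SE 0.13, adjusted p = 0.385) were lower, and the median of the 11 was 0.16. The arrays sat on 3 slides, of which 1 held both diets (high-fat replicates 2 and 3 with control replicate 1), another high-fat replicate 1 alone and the third control replicates 2 and 3.

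None of the 10 genes passed the test between diets, and 7 of them could be tested. All 5 progenitor members had higher means under HFD, by 0.31 to 1.21 on the log2 scale, but mice on one diet differed from each other by more than the diets did. Of the milk members, Lalba and Btn1a1 were measured on all 6 arrays with little spread, and Csn2, Csn3 and Wap were at or near background. In limma, adjusted over all 23458 genes tested, 0 of 7 members passed an adjusted p of 0.05, where 0.0171% of all genes did. At an unadjusted p under 0.05 the count of members was also 0 of 7, against 13.3% of all genes. The diets overlapped in every one of the 7 members, while they did not overlap in 17.2% of all genes (8.47% with HFD higher, 8.75% with HFD lower).

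Elf5 (NM_010125), the ETS-family factor of alveolar fate, had levels of -2.10, -1.31 and -4.35 on high-fat replicates 1 to 3 and of -2.32, -4.88 and -3.90 on control replicates 1 to 3. High-fat replicates 1 and 2 and control replicate 1 were high, and the other 3 mice, 1 of them on HFD, were low. The means were -2.59 ± 1.57 under HFD and -3.70 ± 1.29 under CD (SD, n = 3 each), a difference of 1.12 (SE 0.94, 95% interval -1.16 to 3.39, limma adjusted p = 0.595). Within HFD alone the highest mouse stood 8.19-fold above the lowest.

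Cd14 (NM_009841) encodes the co-receptor for bacterial lipopolysaccharide and is made by luminal progenitors as well as by monocytes. Its levels were 2.26, 3.16 and 0.84 on high-fat replicates 1 to 3 and 2.85, 0.87 and 1.61 on control replicates 1 to 3. The same 3 mice as for Elf5 were high. HFD averaged 2.09 ± 1.17 and CD 1.78 ± 1.00 (SD, n = 3 each), and the difference of 0.31 (SE 0.71, 95% interval -1.41 to 2.03, adjusted p = 0.848) was smaller than either spread. Omitting high-fat replicate 2 turned it to -0.23, and omitting control replicate 2 turned it to -0.14.

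Ltf (NM_008522), which encodes the iron-binding milk protein lactoferrin, gave 1.53, 2.39 and 0.58 on high-fat replicates 1 to 3. On control replicates 1 to 3 it gave 2.30, -1.77 and 0.31, a 16.8-fold span among mice on the same diet. The lowest mouse and the second highest were both controls. The means of 1.50 ± 0.90 and 0.28 ± 2.03 (SD, n = 3 each) differed by 1.21 (SE 1.03, 95% interval -1.27 to 3.70, adjusted p = 0.597). Leaving out control replicate 2 brought the difference down to 0.19, and leaving out control replicate 1 brought it up to 2.22.

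**Figure D1:**
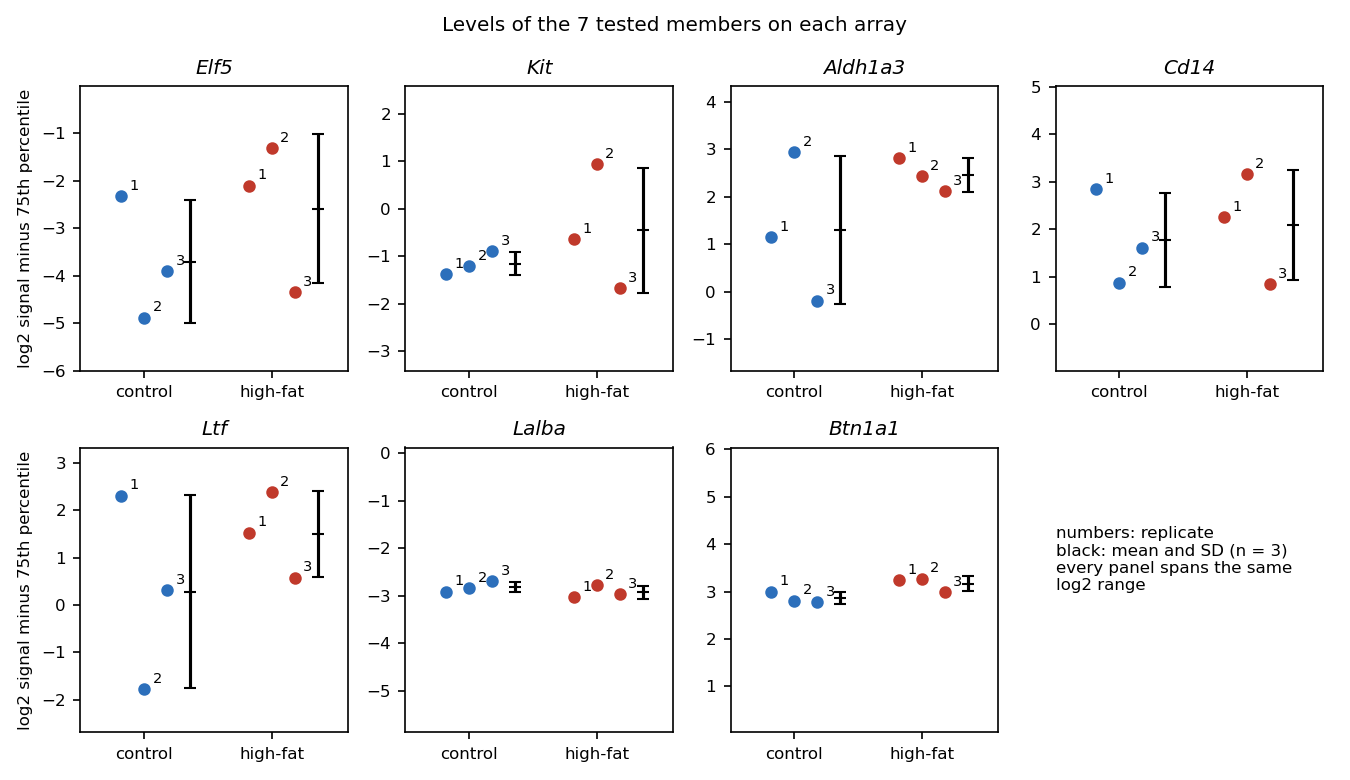
Level of each tested member (log2 units relative to the 75th percentile of its array) by diet, with replicate numbers beside the points and the mean with SD (n = 3) in black; every panel spans the same log2 range. Elf5, Cd14 and Ltf are high in control replicate 1 and high-fat replicates 1 and 2, whereas Lalba and Btn1a1 lie within 0.34 and 0.49 log2 units across all 6 arrays.

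Kit (NM_001122733) stood out in 1 mouse. Its level was 0.94 on high-fat replicate 2, against -0.64 and -1.68 on high-fat replicates 1 and 3 and -1.37, -1.22 and -0.89 on the controls. The controls lay within 0.48 log2 units of each other, and high-fat replicate 3 lay below them all. The means were -0.46 ± 1.32 and -1.16 ± 0.24 (SD, n = 3 each), with a difference of 0.70 (SE 0.63, adjusted p = 0.612). Without high-fat replicate 2 that difference was 0.00015, so the higher mean of HFD rested on this mouse.

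Aldh1a3 (NM_053080) had the opposite spread, tight under HFD and wide under CD. It measured 2.82, 2.43 and 2.12 on high-fat replicates 1 to 3 and 1.14, 2.93 and -0.19 on control replicates 1 to 3. The highest and the lowest of the 6 mice were thus both controls, 8.69-fold apart and scanned on the same slide. HFD averaged 2.46 ± 0.35 and CD 1.30 ± 1.57 (SD, n = 3 each), and the difference was 1.16 (SE 0.74, 95% interval -0.64 to 2.96, adjusted p = 0.498). It was 1.98 without control replicate 2 and 0.42 without control replicate 3.

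The median difference of the 5 progenitor members was 1.12, beside -0.01 over all genes tested, of which 48.95% had positive values. Omission of high-fat replicate 2 gave 0.48, and omission of control replicate 2 gave 0.53. On the slide that held both diets it turned to -0.51. There high-fat replicate 2 exceeded control replicate 1 by 1.01 for Elf5, 2.32 for Kit, 1.29 for Aldh1a3, 0.31 for Cd14 and 0.08 for Ltf. High-fat replicate 3 lay below the same control by 2.02 for Elf5, 2.00 for Cd14, 1.73 for Ltf and 0.31 for Kit, and above it by 0.98 for Aldh1a3. Aldh1a3 was therefore the progenitor member whose 2 within-slide values both had the sign of the pooled difference and were close to it.

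**Figure D2:**
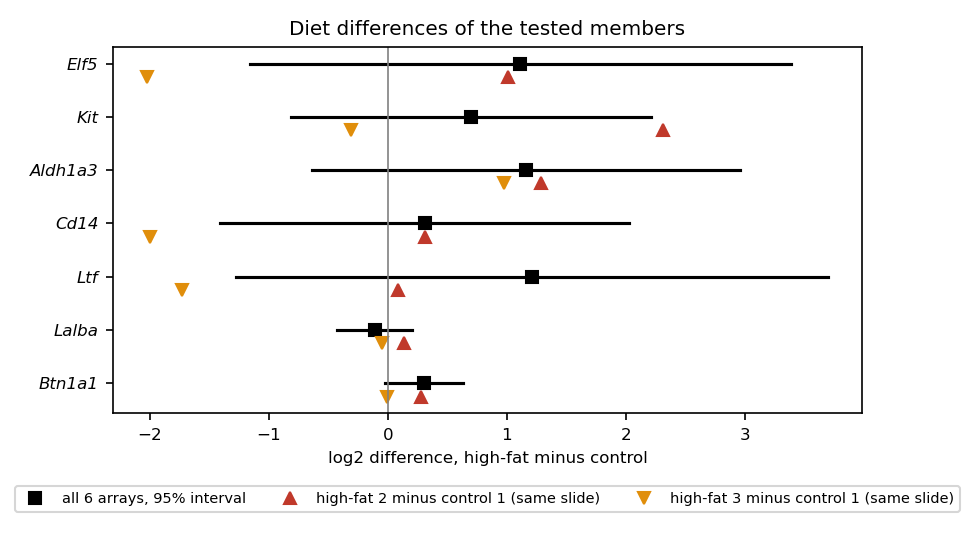
Log2 difference, HFD minus CD, for each tested member: squares with lines give the estimate over all 6 arrays with its 95% interval, and triangles give each high-fat mouse minus the control mouse on the shared slide. All 7 intervals include 0, and for Elf5, Cd14 and Ltf the triangles of high-fat replicate 3 lie below -1.7.

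The progenitor members were among the genes that varied most between mice on the same diet. Pooled over both diets, the SD between arrays was 1.57 for Ltf, 1.44 for Elf5, 1.13 for Aldh1a3, 1.08 for Cd14 and 0.95 for Kit, beside a median of 0.22 over all genes. These values lay at the percentiles 99.6, 99.4, 98.3, 98.0 and 96.9 of all genes tested. Lalba (SD 0.12, percentile 17.5) and Btn1a1 (SD 0.14, percentile 22.6) were in the quieter part of the same distribution. With 3 mice per diet each SD is itself imprecise.

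**Figure D3:**
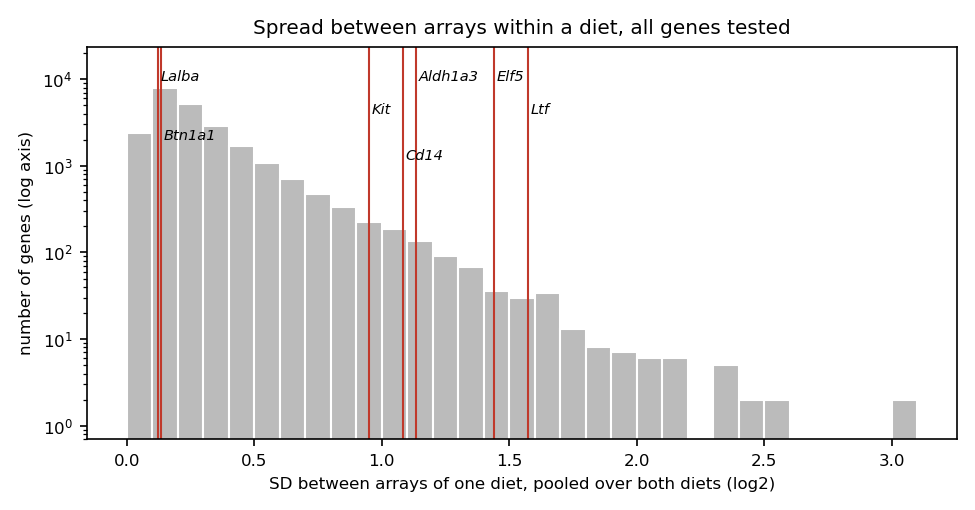
Histogram of the SD between arrays of one diet, pooled over both diets (log2 units), for all 23458 genes tested, with the number of genes on a log axis and red lines at the 7 members. The 5 progenitor members lie in the right tail, from 0.95 to 1.57, and Lalba and Btn1a1 lie left of the median of 0.22.

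Lalba (NM_010679) encodes alpha-lactalbumin, the subunit that turns the galactosyltransferase B4GALT1 into lactose synthase. Its levels were -3.03, -2.77 and -2.96 on high-fat replicates 1 to 3 and -2.91, -2.83 and -2.70 on control replicates 1 to 3. The 6 mice lay within a 1.26-fold span with the diets interleaved. The difference was -0.11 (SE 0.13, 95% interval -0.42 to 0.21, adjusted p = 0.702). In this fit the interval leaves out a change of 1 log2 unit either way, but the bound depends on the scaling. Centred on the epithelial markers the difference was -0.64 (SE 0.42). With normexp background correction and the 75th percentile it was 0.30 (SE 0.38).

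Btn1a1 (NM_013483), butyrophilin of the membrane around milk fat droplets, gave 3.24, 3.27 and 2.99 on high-fat replicates 1 to 3 and 3.00, 2.81 and 2.78 on control replicates 1 to 3. High-fat replicate 3 and control replicate 1 were at nearly the same level, and apart from that pair the HFD mice were higher. Of the 7 members it had the smallest unadjusted p (0.065), with means of 3.17 ± 0.15 and 2.86 ± 0.12 (SD, n = 3 each) and a difference of 0.30 (SE 0.14, 95% interval -0.03 to 0.63, adjusted p = 0.385). With array weights, which down-weight mice far from their group, the difference was 0.42 (adjusted p = 0.032), and 5409 of all genes passed in that fit. Within the shared slide it was 0.14.

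The casein members, Csn2 and Csn3, were at background. Csn2 (NM_009972), which encodes beta-casein, had processed signals of 3.10, 4.03 and 2.66 intensity units on high-fat replicates 1 to 3 and of 2.24, 2.36 and 1.84 on control replicates 1 to 3. Csn3 (NM_007786), which encodes kappa-casein, had signals between 1.48 and 3.07. On the same arrays the median negative-control spot gave 1.61 to 3.48, and the lowest signal that was well above background was 7.02 to 14.4. Neither casein probe was well above background on any of the 6 arrays, nor significantly positive by the scanner software's own test. No fold between diets is given for either.

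Wap (NM_011709), which encodes whey acidic protein, was dim on both of its probes except for 1 array each, and the probes did not name the same array. Probe A_51_P407705 read 52.3 intensity units on control replicate 2 and 2.3 to 6.0 on the other 5. Probe A_55_P2140255 read 15.8 on high-fat replicate 1 and 1.52 to 5.03 elsewhere, with 2.63 on control replicate 2. Each probe had 1 spot per array, none of them an outlier, and each was significantly positive by the software's test on 4 arrays. As each probe was well above background on 1 of 6 arrays, where the filter asked for 3 or more, Wap was not tested and gets no fold.

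**Figure D4:**
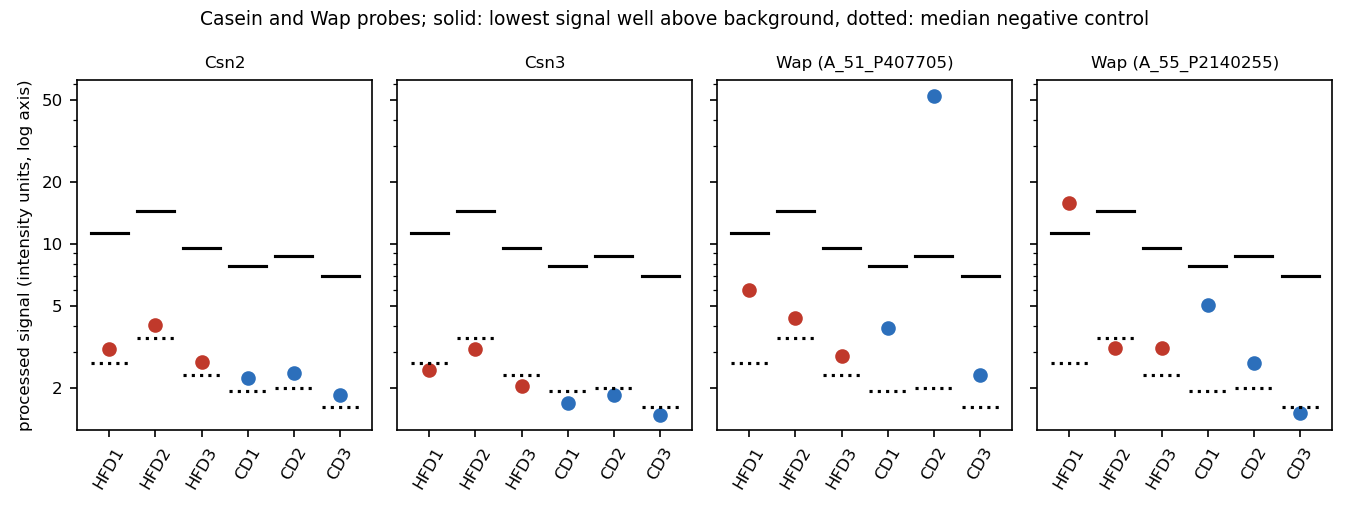
Processed signal (intensity units, log axis) of the Csn2, Csn3 and 2 Wap probes on each array (HFD1 to HFD3 high-fat replicates in red, CD1 to CD3 control replicates in blue), with each array's lowest signal well above background as a solid line and its median negative control as a dotted line. Both caseins sit beside the dotted lines, and the Wap probes cross the solid line on 1 array each, control replicate 2 and high-fat replicate 1.

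No other gene of milk secretion passed the test. Of 24 listed, 20 were tested, 0 passed in either direction, 9 differences were positive and 11 negative, and the median was -0.20. At an unadjusted p under 0.05, 0 were higher and 2 lower, where 5.88% of all genes were higher and 7.46% lower. The diets did not overlap in 1 of the 20, beside 17.2% of all genes. Xdh, the xanthine dehydrogenase that coats milk fat droplets together with butyrophilin, was at -0.73, -0.54 and -0.69 under HFD and at 0.58, -0.41 and 0.41 under CD, so that the diets did not overlap (difference -0.85, SE 0.27, adjusted p = 0.320). Atp2b2, the pump that moves calcium into milk, differed by -1.03 (SE 0.42, adjusted p = 0.373), though by -0.06 within the shared slide. Cidea, a lipid-droplet protein, differed by -0.80 (SE 0.37, adjusted p = 0.391). Wfdc18, a secreted whey-acidic-protein relative, had levels of 3.17, 3.43 and 0.90 under HFD and of 1.61, 1.06 and 0.24 under CD, a difference of 1.53 (SE 0.72, adjusted p = 0.399). High-fat replicate 3 again lay among the controls.

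Among 20 further luminal progenitor genes, all were tested, 0 passed, 12 had positive and 8 negative differences, and the median was 0.23. At an unadjusted p under 0.05, 4 of the 20 were higher (5.88% of all genes) and 1 lower (7.46% of all genes). The diets did not overlap in 5 of the 20, beside 17.2% of all genes. Hey1, a transcriptional target of Notch, was at -1.22, -0.48 and -0.04 under HFD and at -3.31, -1.51 and -1.98 under CD (difference 1.69, SE 0.52, adjusted p = 0.314). Rspo1, a secreted booster of Wnt signalling, was at -1.41, -1.85 and -3.87 under HFD and at -3.87, -4.10 and -4.92 under CD (difference 1.92, SE 0.66, adjusted p = 0.339). For Rspo1 the mean of HFD was carried by replicates 1 and 2, with replicate 3 beside control replicate 1. Bcl11a, a zinc-finger factor of progenitors, differed by 0.61 (SE 0.20, adjusted p = 0.324) and by 0.79 on its other probe. Aldh1a1, a relative of Aldh1a3, differed the other way by -1.07 (SE 0.40, adjusted p = 0.357).

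The prolactin and STAT5 list had 21 of 22 genes tested, with 0 passing as higher and 1 as lower, beside 0.0171% of all genes. That gene was Igf2, a growth factor induced by prolactin in alveolar cells, at -6.46, -6.46 and -6.57 under HFD and at -4.52, -4.83 and -4.62 under CD (difference -1.84, SE 0.13, adjusted p = 0.039). Igf2 was dim under HFD, where the lowest level well above background was -7.44, -6.83 and -7.38 on replicates 1 to 3. On high-fat replicate 2 the 95th percentile of the negative controls, 23.6 intensity units, was above the Igf2 signal. On the other arrays that percentile was 1.99 to 5.51. The Igf2 call was lost wherever no gene passed. That was so with quantile normalisation, with normexp and the 75th percentile, with no filter, and with slide as a fixed block. It was also so with replicate number as a block, and on leaving out any 1 array other than high-fat replicate 3. With slide as a random block 4 genes passed. Of the 21, 8 had positive and 13 negative differences with a median of -0.16, and the diets did not overlap in 6, beside 17.2% of all genes. At an unadjusted p under 0.05, 0 of the 21 were higher (5.88% of all genes) and 6 lower (7.46% of all genes). The genes described next were picked after their values were seen, those lower under HFD first. Stat5a, the main STAT of the gland, was at -0.88, -0.49 and -0.50 under HFD and at -0.22, 0.09 and 0.42 under CD (difference -0.72, SE 0.21, adjusted p = 0.296). Id2, a transcriptional regulator needed for alveolar growth, was at -0.88, -0.80 and -0.70 under HFD and at 0.04, 0.11 and 0.66 under CD (difference -1.06, SE 0.19, adjusted p = 0.193). Nr3c1, the glucocorticoid receptor, differed by -0.76 (SE 0.16, adjusted p = 0.216), and by -0.26 on its other probe. Socs1, an inhibitor of JAK signalling, differed by -0.56 (SE 0.11, adjusted p = 0.214), and Cebpb, a factor for alveolar development, by -0.48 (SE 0.15, adjusted p = 0.321). Within the shared slide the differences of Stat5a, Id2, Nr3c1, Socs1 and Cebpb were -0.27, -0.79, -0.51, -0.54 and -0.29. Other genes of the list did not share this direction or differed little. Gata3 differed by 0.55 (SE 0.40), Socs2 by 0.16 (SE 0.16), Cish by 0.15 (SE 0.17) and Stat5b by -0.16 (SE 0.20). On the shared slide these 4 were at -0.41, -0.14, 0.46 and 0.32.

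Prlr, the prolactin receptor, was 1 of the 8 genes of that list with a positive difference. Its levels were -1.47, -1.92 and -3.88 under HFD and -2.02, -4.11 and -3.23 under CD, a difference of 0.70 (SE 0.77, adjusted p = 0.678). On its other probe the difference was 0.04, and within the shared slide that of the main probe was -0.88. The mice with high Prlr were those with high Elf5.

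Elf5, Cd14 and Ltf varied together over the 6 arrays, Btn1a1 and Kit followed them in part, and Aldh1a3 and Lalba had r between -0.19 and 0.10 with these 3. Pearson's r was 0.96 between Elf5 and Cd14, 0.90 between Elf5 and Ltf and 0.87 between Cd14 and Ltf. Between Elf5 and Kit it was 0.71, and between Aldh1a3 and the other 4 progenitor members it ran from -0.14 to 0.19. Btn1a1 had r of 0.85 with Elf5, 0.74 with Ltf and 0.68 with Cd14, on a much smaller range of levels, and Lalba had -0.12 with Elf5. Each of these values describes 6 arrays that also share RNA preparation, hybridisation and scaling. The first principal component of all genes tested, the main axis of variation between arrays, held 46.7% of the variance. With that axis, on which high-fat replicate 1 was negative, Btn1a1 had r of -0.99 and Elf5 -0.86. Ltf had -0.76, Cd14 -0.68, Kit -0.60, Aldh1a3 -0.47 and Lalba 0.48. The part of that axis in the members' values was not tested. Among companion genes, chosen after their values were seen, Lcn2 (lipocalin 2, a secreted siderophore-binding protein) had r of 0.99 with Cd14, Ehf (an ETS factor related to Elf5) 0.96 with Elf5, Prlr 0.95 and Muc1, a mucin of the luminal surface, 0.97.

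**Figure D5:**
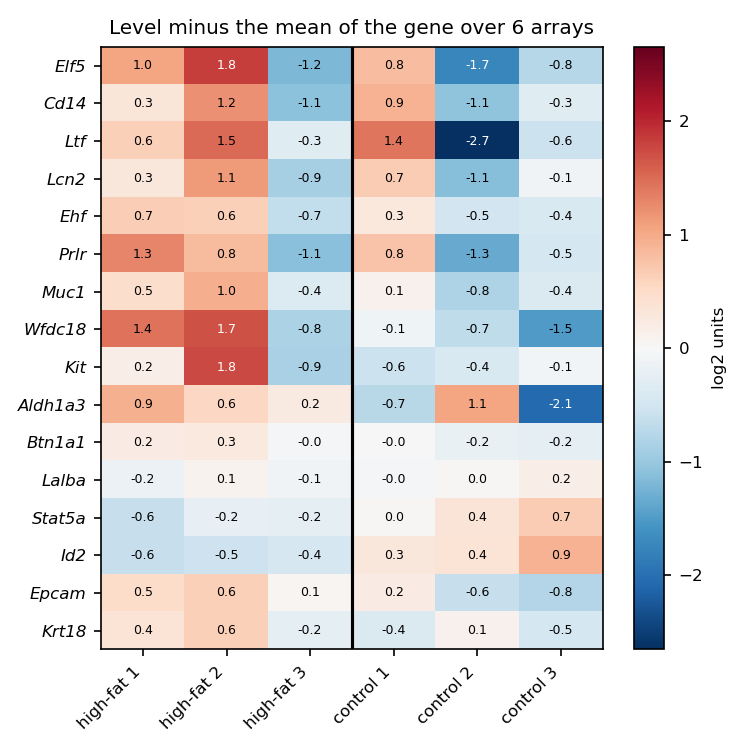
Level of each gene on each array minus the gene's mean over the 6 arrays (log2 units, red above and blue below the mean), with the diets parted by a black line. From Elf5 down to Muc1 the red cells fall in high-fat replicates 1 and 2 and control replicate 1, while Aldh1a3 is highest in control replicate 2 and lowest in control replicate 3.

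An r above 0.8 with Elf5 was found in 9 of 14 general epithelial markers, 6 of 20 further progenitor genes, 3 of 20 milk-secretion genes, 1 of 13 hormone-sensing luminal markers and 0 of 12 basal markers, beside 10.2% of all genes. For Aldh1a3 it was 0 of 14 epithelial and 2 of 12 basal markers, beside 2.5% of all genes. The summed signal of the epithelial markers, in multiples of the 75th percentile, was 460, 545 and 281 on high-fat replicates 1 to 3 and 283, 344 and 237 on control replicates 1 to 3. Krt18, picked after its values were seen, made up most of each sum. The mean level of the 14 epithelial markers was 3.04, 3.28 and 2.34 on high-fat replicates 1 to 3. On control replicates 1 to 3 it was 2.63, 2.38 and 2.07, so that the 3 mice with high Elf5 were highest. All 14 had positive differences (median 0.53, 0.11 within the shared slide), and their part in the members' values was not tested. Fibroblast markers went the other way from Elf5 (0 of 12 above an r of 0.8, median r -0.87), with summed signals of 198, 205 and 512 on high-fat replicates 1 to 3 and 434, 657 and 732 on control replicates 1 to 3; 0 of the 12 passed the test between diets. Basal markers had 12 of 12 positive differences and 0 that passed (median 0.89, 1.01 within the shared slide). At an unadjusted p under 0.05, 8 of these 12 were higher, beside 5.88% of all genes. The diets did not overlap in 9 of them, beside 17.2% of all genes. The part of either list in the members' values was not tested. In such bulk RNA, fewer cells of a type and less RNA per cell cannot be told apart. Scaled to the mean of the 14 epithelial markers in place of the 75th percentile, the median of the progenitor members was 0.59, where all genes had a median of -0.54.

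The genes whose profile came closest to the mean standardised profile of the 5 progenitor members were Ankrd1 (r = 0.998), Timm13 (0.997), Pcid2 (0.991), Pidd1 (0.991) and Cblc (0.990), over 6 arrays and 15160 named genes. With so few arrays 655 of those genes had r above 0.9. For the milk members the profile came from Lalba and Btn1a1 alone, which had an r of -0.43 with each other and so share no profile of their own. The genes nearest to it were Olfr129 (0.990), Olfr314 (0.986), Madcam1 (0.985), Hadha (0.979) and Ogfod3 (0.975), each highest on high-fat replicate 2.

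Several members are also made by other cells, whose markers were read beside them. In each list some markers were well above background on all 6 arrays and others, named here after their values were seen, stayed at background on all 6. Macrophages and monocytes make Cd14. Of 14 of their markers 10 were well above background throughout, 11 were tested and 0 passed. Itgam, an integrin subunit of myeloid cells, ran from 2.39 to 3.25, and the scavenger receptor gene Cd163 stayed at background. The summed signal was 7.51, 7.72 and 9.29 on high-fat replicates 1 to 3 and 8.24, 13.4 and 13.1 on control replicates 1 to 3. It was lowest in the 3 mice with high Cd14, but Itgam made up most of it on every array. Itgam differed by -0.43 on the probe used and by -0.02 and 0.10 on its others. The mean level of the 11 tested markers was -3.71, -3.34 and -3.52 on high-fat replicates 1 to 3. On control replicates 1 to 3 it was -3.94, -3.16 and -2.96, an order that Cd14 did not mirror. The part of these cells in the Cd14 values was not tested.

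Neutrophils store lactoferrin in granules. Of 14 of their markers 9 were well above background on all 6 arrays, 10 were tested and 0 passed, and the granule gene Ngp stayed at background. The summed signal was 140, 230 and 87.3 on high-fat replicates 1 to 3 and 182, 82.0 and 123 on control replicates 1 to 3, highest in the 3 mice with high Ltf. Lcn2, which luminal cells also make, was the largest part of each sum. The mean level of the 10 tested markers was -0.91, -0.14 and -0.49 on high-fat replicates 1 to 3. On control replicates 1 to 3 it was 0.15, -0.46 and 0.32, so that high-fat replicate 1, a mouse with high Ltf, was lowest. S100a8, which encodes a subunit of the neutrophil protein calprotectin and was picked after its values were seen, was at 0.80, 2.64 and 0.48 under HFD and at 3.09, 0.21 and 2.47 under CD. It was high in high-fat replicate 2 and control replicate 1, the mice with the most Ltf, and lowest in control replicate 2, the mouse with the least. S100a9, the gene of the other subunit, was at -2.33, 0.01 and -2.12 under HFD and at 1.31, -1.83 and 0.99 under CD. Camp, a granule gene, was at -4.47, -3.38 and -3.04 under HFD and at -2.63, -2.46 and -2.43 under CD, an order that Ltf did not share. The part of neutrophils in the Ltf values was not tested.

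Mast cells and melanocytes express Kit. Of 10 mast cell markers 3 were well above background on all 6 arrays (Hdc, Tpsb2 and Gata2), 4 were tested and 0 passed, and the receptor subunit genes Fcer1a and Ms4a2 stayed at background. Hdc, which makes histamine, was at -4.15, -3.49 and -1.99 under HFD and at -2.26, -0.98 and -1.03 under CD (difference -1.79, SE 0.62, adjusted p = 0.339). The summed mast cell signal was 0.281, 0.30 and 0.489 on high-fat replicates 1 to 3 and 0.391, 0.768 and 0.738 on control replicates 1 to 3, and Kit was highest on high-fat replicate 2. Of 8 melanocyte markers 4 were well above background on all 6 arrays (Tyr, Pmel, Mlana and Mitf), the same number was tested and 0 passed, and the pigment enzyme genes Dct and Tyrp1 stayed at background. Mitf, a transcription factor that other cells also make, was at 0.02, 0.36 and 1.43 under HFD and at 1.90, 1.86 and 2.61 under CD, without overlap (difference -1.52, SE 0.40, adjusted p = 0.269). The summed melanocyte signal was 1.13 to 2.79 under HFD and 3.73 to 6.19 under CD, and Mitf made up most of it on every array. Tyr differed by 0.21, Pmel by 0.17 and Mlana by -0.14, and the median of the 4 tested was 0.02. The part of mast cells and melanocytes in the Kit values was not tested.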

How the data were processed

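Per the submitters' processing notes and the file headers, the scanner images went through Agilent Feature Extraction 11.0.1.1. The deposited scanner files hold background-subtracted, detrended intensity per spot on a linear scale, with no scaling between arrays. The authors' deposited value table also holds linear intensity; its scale was linear and uncentred, with medians of 0.134, 0.134 and 0.137 (HFD) and 0.134, 0.140 and 0.134 (CD). Of its values 99.9% stood in 1 ratio per array to the processed signal (within 1%), and it served as an alternative. Control and outlier spots were left out, spots of a probe were averaged, and 111 of 39429 probes lacked a usable spot on every array. Probes were named through RefSeq accessions (27427 matched 1 symbol). Signals were log2-transformed relative to the array's 75th percentile; 28687 probes called above background by the software on 3 or more of 6 arrays were kept, and the probe with the highest mean stood for its gene (23458). The diet comparison used limma (version 3.58.1, R 4.3.3): lmFit, then eBayes, with two-sided p-values adjusted by Benjamini-Hochberg across the 23458 genes. An exact permutation test of 3 against 3 mice cannot go below 0.1. limma was tested on simulated data. The members, the lists and the tests were chosen with earlier results of these data known. Named genes were every member and, in each list, up to 6 genes that passed, or the 4 of smallest p where none did; the text gives a selection, and genes outside that rule are marked as picked after their values were seen. The series' design text calls the samples biological replicates, and p-values measure the spread between them. Same-numbered mice of the diets deviated from their group means with r of 0.33, -0.14 and 0.25, so the numbers were not taken as pairs.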

Additional observations from a re-analysis of the deposited data

How the results depend on the processing

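The 21 other settings changed scaling, background, filter, probe rule, values, blocks, variance or left out 1 array. Of all genes, 4 passed in the fit reported here; 0 passed in limma with quantile normalisation, normexp and the 75th percentile, no filter, or slide as a fixed block (1101 to 3210 at an unadjusted p under 0.05), 2 with median centring, 7 with normexp and quantile scaling or with probes above background on all 6 arrays, 608 when centred on epithelial markers, and 5409 with array weights. With the replicate block 0 passed (4044 unadjusted) and no member's call changed; high-fat replicate 2 deviated most like control replicate 1, not its own number. Leaving out 1 array gave 0 to 37 (37 without high-fat replicate 3).

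No progenitor member passed in any setting, and Btn1a1 passed with array weights alone. Slide as a fixed block, which rests on the shared slide alone, put the progenitor median at -0.51. It reversed Elf5 (-0.51), Cd14 (-0.85) and Ltf (-0.82), and Lalba (0.0434). Slide as a random block gave a progenitor median of 1.13, reversed no member and let 4 of all genes pass. Leaving out 1 array gave Cd14 -0.23 to 0.93 and Kit 0.00015 to 1.31. Centred on epithelial markers, which moved the median of all genes to -0.54, Cd14 was -0.22, Btn1a1 -0.23 and the milk median -0.43. With normexp and the 75th percentile, where all genes had a median of 0.27, Lalba was 0.30 and the milk median 0.24. Without a filter the milk median over all 5 members was 0.30, since background-level Csn2 and Csn3 enter it, beside 0.10 over Lalba and Btn1a1. Cd14 and Ltf were not analysed in the deposited table. Dim signals limit Csn2, Csn3 and Wap: levels under background have no order.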

Other observations

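Outside the members, 3 further milk genes that failed the filter were each well above background on 1 array. Csn1s1, an alpha casein, was at -4.81 on high-fat replicate 1, at -6.88 on high-fat replicate 2, just under the lowest signal well above background there (-6.83), and at -7.93 or lower on the other 4. Glycam1, a secreted mucin-like milk protein, was at -6.06 on high-fat replicate 2 and at -9.29 or lower elsewhere. On high-fat replicate 2 the 95th percentile of the negative controls was 23.6 intensity units, close to the Glycam1 signal. Slc34a2, a phosphate transporter of the luminal membrane, was at -6.79 on high-fat replicate 3. Csn1s2a stayed at background on all 6. Csn1s2b, another casein, passed the filter and was well above background on all 6 arrays. Its levels ran from -5.90 to -5.07 (difference 0.07, SE 0.25, limma adjusted p = 0.903), and its other probe differed by 0.51.

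Olah, the thioesterase that ends fatty acid chains at medium length for milk fat, was at -1.72 on high-fat replicate 3 and between -6.52 and -6.09 on the other 5. Spp1, the secreted phosphoprotein osteopontin, was at 1.72 and 1.65 on high-fat replicates 1 and 2 and between 5.19 and 5.79 on the other 4 (difference -2.21, SE 1.1, limma adjusted p = 0.410). These genes were singled out after their values were seen, and none was tested beyond the comparison across all genes.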
